A study of Mus musculus with 4 samples.

Results

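The genes described here have symbols that begin like those of oxidative phosphorylation subunits, and they were measured in mouse yolk sac. They were taken from an Illumina bead array as all probes whose gene symbol in the platform annotation begins with Ndufa, Ndufb, Ndufc, Ndufs, Ndufv, Sdha to Sdhd, Uqcr, Cox4 to Cox8 or Atp5. A probe was kept when its detection p, read against negative control beads, was under 0.05 on 2 or more of the 4 arrays. That gave 118 probes of 83 genes, out of 18817 probes and 10603 named genes that met the same condition on the whole array. Of the 83 genes, 70 encode subunits, 12 are assembly factors or other genes that are not subunits, and Ndufs5-ps is a pseudogene. The symbols match 142 probes of 91 genes in all, and 8 of these genes were not above background.

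Total RNA of whole yolk sacs at embryonic day 9.5 was hybridised for 2 samples titled Flk1Cre;ETV2 CKO and 2 titled Control, all of strain C57BL/6. In the first group Etv2, an ETS-family factor gene of blood and endothelial development, was to be deleted with loxP sites and a Cre named for Flk1 (Kdr), a receptor gene of vascular and blood precursors, so the yolk sac endoderm was not the target of the deletion. The column headers call the groups Mut and WT, and the alleles of the controls are not given. Whether a sample is 1 yolk sac or a pool, and whether samples came from different litters, is not stated either, so each p-value reflects the spread of these 4 samples alone, and that spread may be technical. Because whole tissue was used, fewer cells of a type and less RNA per cell cannot be told apart.

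Oxidative phosphorylation is carried out in the inner mitochondrial membrane. Complexes I (NADH dehydrogenase) and II (succinate dehydrogenase) pass electrons to ubiquinone, complex III passes them on to cytochrome c, and complex IV (cytochrome c oxidase) hands them to oxygen. The proton gradient built by complexes I, III and IV drives complex V, the ATP synthase. Most subunits are encoded in the nucleus and a few in mitochondrial DNA, and several complex IV subunits have separate forms in muscle or testis. Assembly factors help to build the complexes and are not part of the finished enzymes.

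The labels and the tissue were checked first. The Etv2 probe had raw intensities of 206 and 227 on the CKO arrays and 157 and 177 on the control arrays. Median raw intensity over all probes was also higher on the CKO arrays, at 117.5 and 125.1 against 108.8 and 114.5. Raw values here and below include this array difference, while log2 differences are taken after normalization. Normalized Etv2 was higher on the array pair labelled CKO, by 0.46 ± 0.10 on the log2 scale (SE, n = 2 a group, limma adjusted p = 0.0199). On the authors' processed values Etv2 stood at 0.13 and did not pass (limma adjusted p = 0.0599), and the call also ended without CKO replicate 1, CKO replicate 2 or control replicate 1 (0.45, 0.47 and 0.39, limma adjusted p = 0.0802, 0.0736 and 0.0816). Whether this probe lies in the deleted part is not known here, so "CKO" below means the samples labelled so. All 12 visceral endoderm markers, among them Afp, Ttr and Apoa1, were above background. Of these, 0 passed the limma test (0 also at an unadjusted p under 0.05), against 25.2% of all tested genes. For 10 of the 12 the mean normalized log2 level was 12 or more, and 9.93% of all genes at such levels passed. Of 11 tested erythroid markers 8 were lower, and of 8 tested cardiac muscle markers 7 were higher on the CKO arrays. The erythroid markers summed to normalized intensities of 76327 and 76559 on the CKO arrays against 84848 and 84761 on the control arrays. Their median log2 difference was -0.66, and 4 of the 11 had a mean log2 level of 12 or more. The cardiac markers summed to 2421 and 2221 against 1081 and 1053, with a median log2 difference of 1.18. Of the fixed markers, Epb42 among the erythroid, Kdr among the endothelial and Tnni3, Myh6, Myh7, Ttn and Nkx2-5 among the cardiac ones were not above background. Of 11 tested endothelial markers 3 were lower and 2 higher. Xist, transcribed from the inactive X chromosome of females, stood at 1.05 (CKO minus control, log2), and Eif2s3y of the Y chromosome at -0.73, both past the test (0.42 and -0.41 on the authors' processed values, also past it), so the sex make-up of the groups differed and cannot be told apart from the genotype. The part of these differences in any value below was not tested.

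Promoters are shown for the 3 genes that passed the test and for Cox6b1, the gene next to Etv2 in the chromosome order. Each runs from 250 bases before to 50 bases after the annotated start, 5′ to 3′ on the gene's strand, from RefSeq (GRCm38.p6). Capitals mark any match, on either strand, to the letters of 4 motifs of factors known to act on mitochondrial or ETS target genes: NRF1 (by its usual palindromic motif), CCGGAAG for ETS factors, AAGATGGC for YY1 and AAGGTCA for estrogen-related receptors.
Cox7a1, muscle form of a complex IV subunit, chr7:30183921-30184220, plus strand: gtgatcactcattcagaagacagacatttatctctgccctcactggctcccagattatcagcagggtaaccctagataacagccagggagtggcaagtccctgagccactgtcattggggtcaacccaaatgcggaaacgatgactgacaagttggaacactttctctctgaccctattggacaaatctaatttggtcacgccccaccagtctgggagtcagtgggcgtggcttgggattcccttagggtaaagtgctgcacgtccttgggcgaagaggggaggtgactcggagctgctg
Ndufaf4, complex I assembly factor, chr4:24897833-24898132, plus strand: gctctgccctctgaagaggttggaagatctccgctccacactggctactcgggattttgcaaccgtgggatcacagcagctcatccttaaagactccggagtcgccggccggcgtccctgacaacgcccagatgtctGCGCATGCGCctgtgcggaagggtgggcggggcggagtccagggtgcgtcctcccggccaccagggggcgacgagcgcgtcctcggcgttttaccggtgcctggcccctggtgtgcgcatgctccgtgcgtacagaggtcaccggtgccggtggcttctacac
Ndufa3, accessory complex I subunit, chr7:3617123-3617422, plus strand: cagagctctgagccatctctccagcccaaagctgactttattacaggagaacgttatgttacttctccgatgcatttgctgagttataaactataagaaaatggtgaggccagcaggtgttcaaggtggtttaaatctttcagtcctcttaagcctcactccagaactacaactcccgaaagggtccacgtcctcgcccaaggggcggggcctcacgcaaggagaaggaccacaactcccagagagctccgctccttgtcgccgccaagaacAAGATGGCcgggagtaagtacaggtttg
Cox6b1, complex IV subunit, chr7:30626065-30626364, minus strand: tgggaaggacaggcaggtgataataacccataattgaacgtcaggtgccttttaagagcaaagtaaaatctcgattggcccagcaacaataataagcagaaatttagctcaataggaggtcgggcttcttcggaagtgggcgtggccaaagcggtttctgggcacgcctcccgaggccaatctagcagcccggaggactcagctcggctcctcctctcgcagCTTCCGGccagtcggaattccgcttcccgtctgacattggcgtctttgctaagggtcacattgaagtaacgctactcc

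The capitals are an NRF1 match in Ndufaf4 (which reads the same on both strands), a YY1 match in Ndufa3 and an ETS match on the opposite strand in Cox6b1. The window of Cox7a1 holds none of the 4 letter strings. Promoters were found for 73 of the 83 genes, 78 windows in all. The NRF1 motif stood in 25.6% of these windows against 4.60% of all 32851 in the table, the ETS letters in 26.9% against 8.86%, the YY1 letters in 14.1% against 2.75% and the receptor letters in 8.97% against 4.72%. A match in letters describes the window only and is not a measured site.

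The transcripts of the respiratory chain and ATP synthase differed little between the groups. Of the 83 genes, Ndufaf4 and Cox7a1 fell and Ndufa3 rose on the CKO arrays, and 80 did not pass the test (limma adjusted p under 0.05 over all 10603 genes). At an unadjusted p under 0.05 the counts were 13 members and 4136 of all genes. The 3 calls are 3.61% of the members, against 25.2% of all tested genes. Of the 70 subunit genes among the members, 2 were called (2.86%). The members' median log2 difference, CKO minus control, was 0.03, with a range from -0.69 to 0.48, against a median of 0.02 over all genes. The median size of the difference, sign aside, was 0.10 for the members and 0.21 for all genes. For 72 of the 83 members, or 86.7%, the 95% interval of the difference lay within 0.5 on the log2 scale (1.41-fold) of no change in both directions, compared with 52.5% of all genes. The groups did not overlap for 49 members, 30 higher and 19 lower, or 59.0%, where the share over all genes was 65.4%.

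Replicate arrays lay closer together for these genes, with a median gap of 0.07 on the log2 scale against 0.12 for all genes. The mean normalized level was 12 or more on the log2 scale for 44 members, and 1 of the 44 was called (2.27%), against 68 of 685 genes at such levels (9.93%). The highest level of any gene on the arrays was 14.53. Signal of a bead array flattens towards the top of its range, and the part of this in the small differences was not tested.

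**Figure D1:**
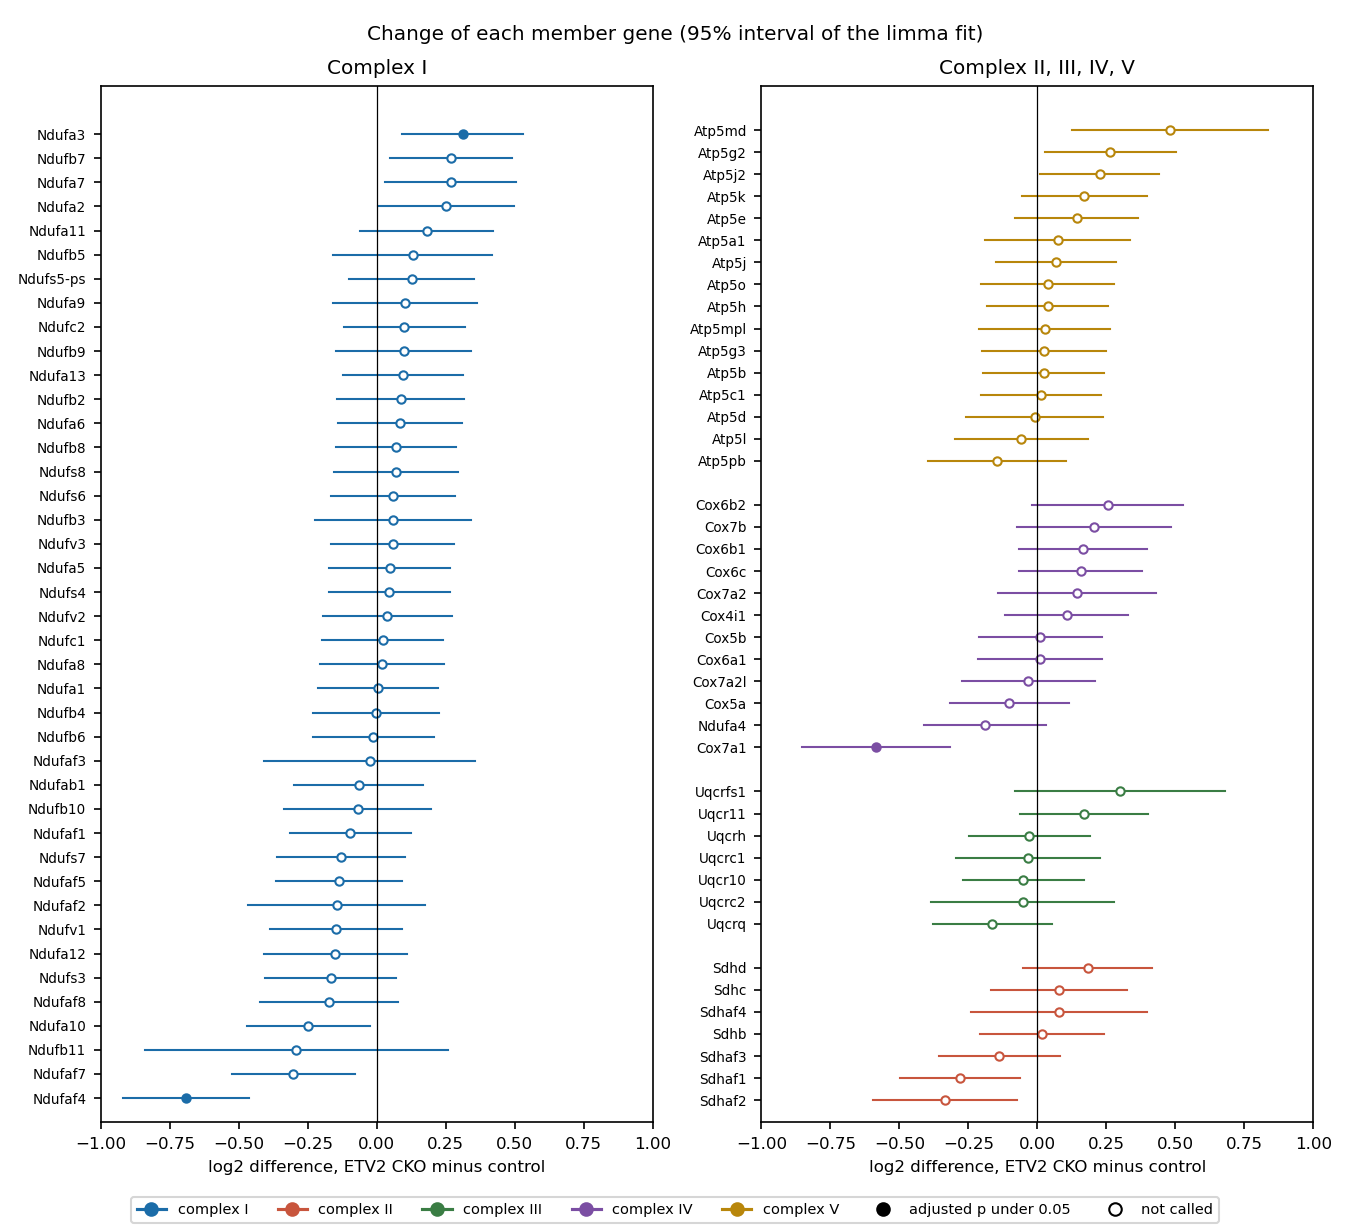
Log2 difference between ETV2 CKO and control arrays (horizontal axis) for each of the 83 member genes, with complex I at the left and complexes II to V at the right. Points are estimates from 2 arrays a group, bars are 95% intervals of the limma fit and filled points passed the test, which were Ndufaf4, Cox7a1 and Ndufa3.

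**Figure D2:**
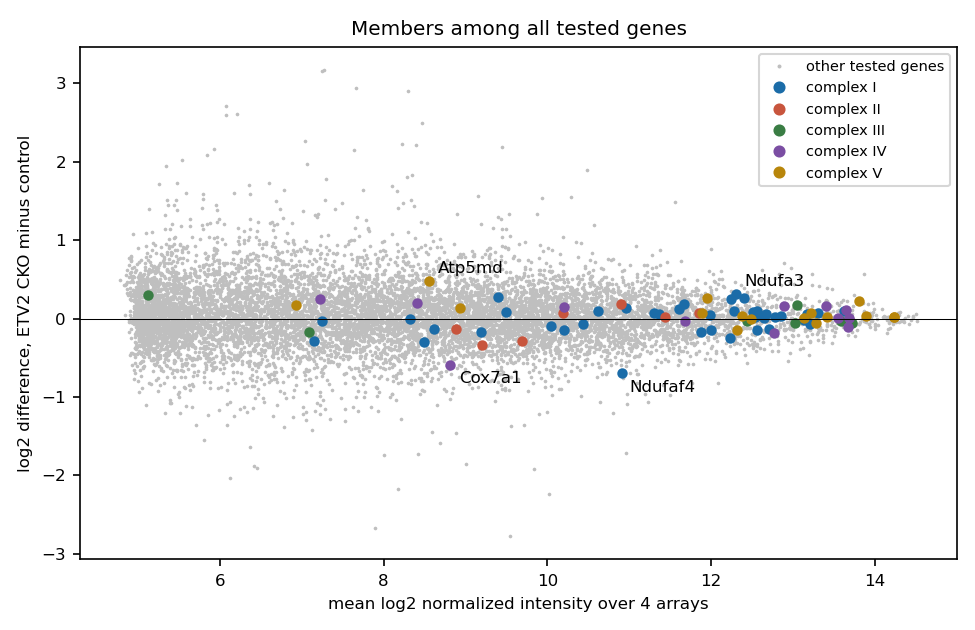
Log2 difference (vertical axis) against the mean log2 normalized intensity over 4 arrays (horizontal axis), with members coloured by complex and the other tested genes in grey. The members stay between -0.69 and 0.48, and 44 of them lie at a level of 12 or more.

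In complex I, with 41 tested genes, Ndufaf4 fell and Ndufa3 rose, the median was 0.04, and 24 values were above 0 and 17 below. Ndufaf4 is an assembly factor needed to build the enzyme. Its brighter probe had raw intensities of 1484 and 1825 on the CKO arrays and 2340 and 2621 on the control arrays. The groups did not overlap, and the log2 difference was -0.69 ± 0.10 (SE, n = 2 a group, 1.62-fold lower, limma adjusted p = 0.00505). A second Ndufaf4 probe stood at normalized log2 levels of 6.97 and 6.93 on the CKO arrays and 8.28 and 8.26 on the control arrays. That probe differed by -1.32 ± 0.09 in a separate fit of each probe above background. Both probes were thus lower on each CKO array than on either control array, and Ndufaf4 was the only member called in each of the 13 alternative settings that were run (log2 difference between -1.01 and -0.63).

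Ndufa3, an accessory subunit of the membrane arm of complex I, had raw intensities of 5567 and 6019 on the CKO arrays against 4297 and 4909 on the control arrays. Its difference was 0.31 ± 0.09 (1.24-fold higher), and the limma adjusted p of 0.0495 lay just under the threshold. Its other probe gave 0.23. The call was lost when any 1 array was left out (limma adjusted p between 0.127 and 0.176), with the replicate number as a block (0.0595) and in 3 other settings.

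The 5 tested core subunits of complex I, the nuclear-encoded ones of its electron-transferring arm, had a median of -0.13, and 0 of them passed the limma test or had an unadjusted p under 0.05. Ndufs3 stood at -0.17, Ndufv1, which binds NADH, at -0.15, Ndufs7 at -0.13, Ndufv2 at 0.04 and Ndufs8 at 0.07. The 28 accessory subunits had a median of 0.06, and 21 were above 0. Ndufa13 had normalized log2 levels of 13.66 and 13.68 on the CKO arrays and 13.55 and 13.59 on the control arrays, a difference of 0.09. Ndufb7 at 0.27, Ndufa7 at 0.27 and Ndufa2 at 0.25 were higher and Ndufa10 at -0.25 was lower on both CKO arrays, none past the test (limma adjusted p between 0.0769 and 0.124). Ndufb11 at -0.29 had the widest interval of the members, from -0.84 to 0.26, with 7.26 and 6.75 on the CKO arrays overlapping 7.02 and 7.58 on the control arrays. The pseudogene Ndufs5-ps also begins with a prefix of the rule, and its value of 0.13 may include transcripts of near-identical copies.

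Of the other assembly factors of complex I, Ndufaf7 stood at -0.30 (limma adjusted p = 0.0576), Ndufaf8 at -0.17, Ndufaf2 at -0.15, Ndufaf5 at -0.14, Ndufaf1 at -0.10 and Ndufaf3 at -0.02. Ndufaf7 modifies a core subunit during assembly. Its groups did not overlap, with normalized levels of 8.38 and 8.30 on the CKO arrays against 8.62 and 8.66.

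In complex II, which links the citric acid cycle to the chain, 0 of 7 genes passed the limma test, and 2, Sdhaf1 and Sdhaf2, had an unadjusted p under 0.05. The iron-sulfur subunit gene Sdhb stood at 0.02, and the membrane anchor genes Sdhc and Sdhd at 0.08 and 0.18. Sdhc had normalized levels of 11.92 and 11.85 on the CKO arrays and 11.89 and 11.73 on the control arrays, so its groups overlapped. Its assembly factor genes went lower in 3 of 4 cases without passing the test. Sdhaf2, needed to attach the flavin to Sdha, stood at -0.34 and Sdhaf1, which serves the iron-sulfur subunit, at -0.28 (limma adjusted p = 0.0651 and 0.0654). Sdhaf3 was at -0.14 and Sdhaf4 at 0.08. In the fit of each probe, the dimmer probes of Sdhaf1 and Sdhaf3 stood at -0.39 and -0.35, neither past the test (limma adjusted p = 0.0508 and 0.0602).

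None of the 7 complex III genes passed the limma test either, 0 having an unadjusted p under 0.05 (median -0.03). The core protein genes Uqcrc1 and Uqcrc2 stood at -0.03 and -0.05, Uqcr10 at -0.05 and the hinge protein gene Uqcrh at -0.03. Uqcr10 had normalized levels of 13.69 and 13.70 on the CKO arrays and 13.78 and 13.72 on the control arrays. Uqcr11 was at 0.17 and Uqcrq at -0.16. The Rieske iron-sulfur protein gene Uqcrfs1 was above background on the 2 CKO arrays only, at raw intensities of 139 and 136 against 117 and 119, which bounds it at least 1.13-fold higher (limma adjusted p = 0.212), and its normalized levels overlapped between groups. Uqcrfs1 is the member just inside the detection threshold. Among the 8 genes not above background, the lowest detection p on any array was 0.167, for Cox4i2.

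In complex IV 1 of 12 genes passed the test, and the complex median was 0.06. Cox7a1, the form of subunit VIIa of heart and skeletal muscle, had raw intensities of 472 and 491 on the CKO arrays and 558 and 689 on the control arrays. The CKO arrays were both lower, the log2 difference was -0.59 ± 0.11 (SE, n = 2 a group, limma adjusted p = 0.0138), and 1 probe was measured. The call was lost without CKO replicate 2 (-0.50, limma adjusted p = 0.068) and without control replicate 2 (-0.50, limma adjusted p = 0.0516). The other form of the subunit, Cox7a2, had normalized levels of 10.13 and 10.41 on the CKO arrays and 10.16 and 10.10 on the control arrays, with overlapping groups. Its difference was 0.14 with a 95% interval from -0.14 to 0.43, and that of Cox7a1 ran from -0.85 to -0.32. The difference between the 2 forms was not tested. Most of the tested cardiac markers given above were higher on the CKO arrays, and a link between them and the Cox7a1 value was not tested.

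The remaining muscle or testis forms gave little signal. The testis form Cox6b2 was at 0.25 with normalized levels of 7.38 and 7.31 against 7.21 and 6.97, and did not pass the test. Cox6a2 and Cox8b of muscle, Cox7b2 and Cox8c of testis and Cox4i2 of lung stayed below the detection condition. The widely expressed forms lay close to 0 or above it. Cox4i1 was at 0.11, Cox5a at -0.10, Cox5b and Cox6a1 each at 0.01, Cox6c at 0.16 and Cox7b at 0.21. Cox5b had normalized levels of 13.71 and 13.66 on the CKO arrays and 13.71 and 13.64 on the control arrays. Ndufa4, named for complex I but now counted as a complex IV subunit, was at -0.19, and Cox7a2l, counted here among the members that are not subunits, at -0.03.

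The 16 complex V genes had a median of 0.04, 13 of them above 0, and 0 passed the limma test. Atp5md, Atp5g2 and Atp5j2 had an unadjusted p under 0.05. The catalytic head genes Atp5a1, Atp5b, Atp5c1, Atp5d and Atp5e lay between -0.01 and 0.14. Atp5b, the beta subunit that makes ATP, had raw intensities of 19512 and 20415 on the CKO arrays and 17983 and 19739 on the control arrays, or 0.02 after normalization. Atp5g3, one of the genes for the c ring, was at 0.03, and Atp5g2, another of them, at 0.26. Atp5j2, a membrane subunit gene, was at 0.23. Atp5md, a small subunit that holds ATP synthase pairs together, had the highest value of all members, 0.48 ± 0.15 (limma adjusted p = 0.0572). Its normalized levels were 8.82 and 8.77 on the CKO arrays and 8.10 and 8.53 on the control arrays, so the groups did not overlap although the control arrays differed widely. Without control replicate 1 the difference of Atp5md was 0.27 (limma adjusted p = 0.188), and without control replicate 2 it was 0.69 (limma adjusted p = 0.0156). Atp5md passed in 6 of the 13 alternatives, at 0.30 on the authors' processed values.

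**Figure D3:**
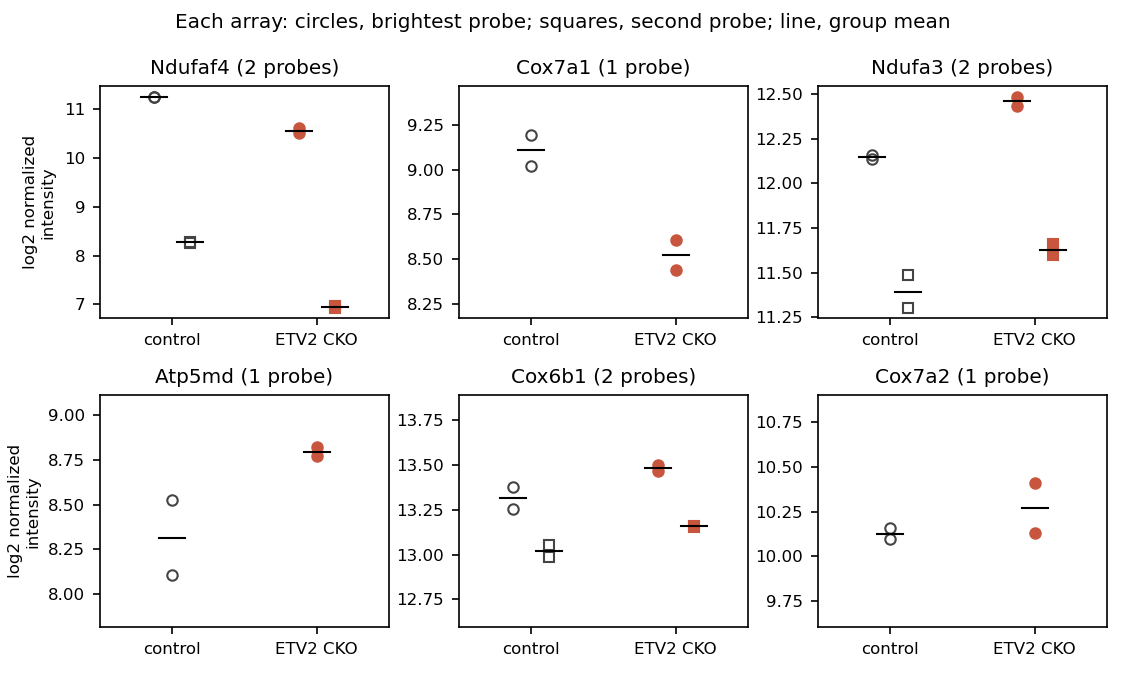
Log2 normalized intensity (vertical axis) on each of the 4 arrays for 6 members, with open symbols for control and filled symbols for ETV2 CKO, circles for the brightest probe, squares for the second probe and lines for group means. Both Ndufaf4 probes and Cox7a1 are lower on each CKO array, Ndufa3 is higher on each, and the Cox7a2 groups overlap.

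For 27 genes 2 or more probes were above background, and the probes pointed the same way for 15 of them and opposite ways for 12. The gap between the lowest and highest probe of a gene had a median of 0.15 and reached 0.63 in Ndufaf4. The genes with opposite signs were Atp5a1, Atp5j, Atp5l, Atp5o, Atp5pb, Ndufab1, Ndufb10, Ndufb6, Ndufb8, Ndufc1, Ndufv3 and Sdhb. Their values lay between -0.33, for a dim Ndufb8 probe, and 0.21, for an Ndufv3 probe. Fitted probe by probe, 4 of 118 passed the test (3.39%), against 20.9% of all probes above background. These were both Ndufaf4 probes and that of Cox7a1, which were lower, and a dim probe of the accessory subunit gene Ndufc2, which was higher by 0.71 ± 0.14 (limma adjusted p = 0.0214). The bright Ndufc2 probe stood at 0.10, and neither Ndufa3 probe passed in the fit by probe. With the probes of a gene averaged, Ndufc2 stood at 0.40 and passed the test (limma adjusted p = 0.0305).

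**Figure D4:**
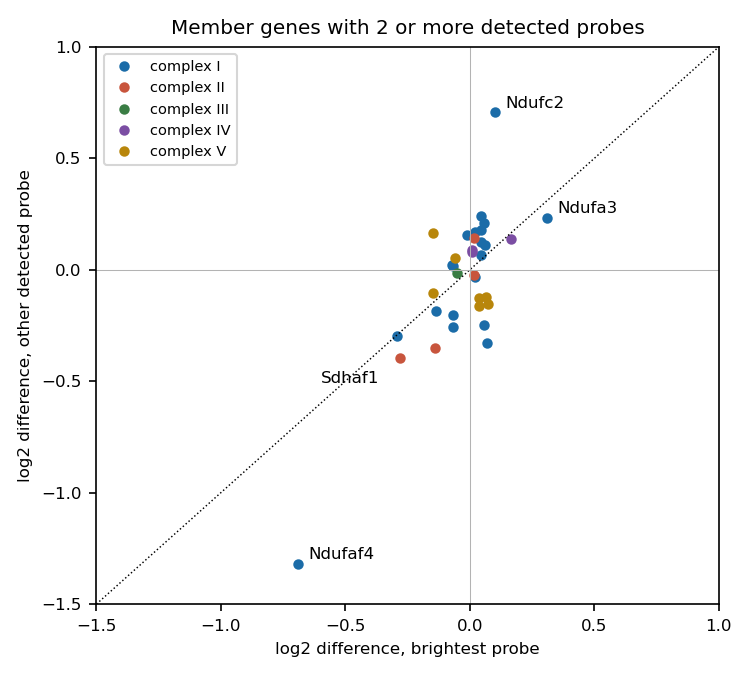
Log2 difference of each further detected probe (vertical axis) against that of the brightest probe of the same gene (horizontal axis), for the 27 member genes with 2 or more detected probes, coloured by complex, with a dotted line of equality. Most points lie near 0, the Ndufaf4 probes are both lower, and the Ndufc2 probes stand at 0.10 and 0.71.

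The members Cox6b1, Sdhaf1 and Cox7a1 lie near Etv2 on chromosome 7. In the gene order of RefSeq, 0 genes stand between Cox6b1 and Etv2, 31 between Sdhaf1 and Etv2 and 43 between Cox7a1 and Etv2, while the other 5 members on that chromosome, Ndufa3 and Cox6b2 among them, are at least 1144 genes away. Cox6b1 had raw intensities of 11222 and 12534 on the CKO arrays and 9348 and 10917 on the control arrays. Its difference was 0.17 with an interval from -0.07 to 0.40, and its second probe gave 0.14. Of these neighbours only Cox7a1 passed the test, and an effect of the locus on them was not tested. The 3 X-linked members, Ndufa1 at 0.01, Ndufb11 at -0.29 and Cox7b at 0.21, did not pass the test.

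Assembly factors and other non-subunit genes were compared by their values. Among the 12 members that are not subunits, 11 were below 0 (median -0.14), and among the 70 subunit genes 21 were below 0 (median 0.05), with 5001 of 10603 below 0 over all genes. In a separate list of 29 tested assembly factors, 6 fell and 1 rose, and the median was -0.16. Over all genes 10.8% were called lower and 14.4% higher. Ecsit, a complex I assembly factor that also acts in innate immune signalling, fell by 0.73 ± 0.13. Taco1, which activates translation of a mitochondrially encoded complex IV subunit, fell by 0.68 ± 0.11, and Cox18, which inserts such a subunit into the membrane, by 0.53 ± 0.10. Cox20, a chaperone of the same enzyme, rose by 0.45 ± 0.10. Taco1 was dim and stood at -0.30 without background correction and at -0.17 on the authors' processed values, past the test in both. The call of Cox18 ended without CKO replicate 1 (-0.47, limma adjusted p = 0.0632), and that of Cox20 when any 1 array was left out (0.38 to 0.51, limma adjusted p from 0.0509 to 0.105). The difference between the assembly factors and the subunits was not tested.

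Further mitochondrial lists are given for comparison. Among 73 tested genes of mitochondrial ribosomal proteins, 17 fell, 0 rose and 56 did not pass, with a median of -0.21 and 61 values below 0. The share called was 23.3%, near the 25.2% of all tested genes, of which 10.8% were lower and 14.4% higher. Mrps12 fell by 0.58 ± 0.09, from raw intensities of 4163 and 4498 on the control arrays to 2894 and 3100 on the CKO arrays. Mrps5 and Mrpl16 fell by 0.53 and 0.52. The call of Mrps5 ended without the second array of either group (limma adjusted p = 0.0926 for CKO and 0.0682 for control), that of Mrpl16 without CKO replicate 1 or control replicate 1 (0.0683 and 0.0579), and Mrps5 stood at -0.31 on the authors' processed values. The count of 17 was 7 under median scaling and between 2 and 4 when 1 array was left out. Of 14 regulators of mitochondrial biogenesis 3 fell, or 21.4%. They were the coactivator genes Ppargc1b by 0.77 ± 0.10, Ppargc1a by 0.75 ± 0.10 and Pprc1 by 0.45 ± 0.10. Ppargc1a was dim, with raw intensities of 130 and 141 against 146 and 149. Its difference was -0.44 with an offset of 50, -0.26 without background correction and -0.13 on the authors' processed values, where it did not pass (limma adjusted p = 0.0661). Ppargc1b stood at -0.38 on those values and passed. The call of Pprc1 ended without either CKO array (limma adjusted p = 0.0586 and 0.108) and without control replicate 1 (0.0906). Nrf1 at -0.27, Tfam at -0.27 and Gabpa at -0.12 did not pass.

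Of 15 genes for electron carriers and coenzyme Q synthesis 2 were called (13.3%), against 25.2% of all tested genes. Coq5, a methyltransferase of that synthesis, fell by 0.71 ± 0.10 and Coq10b by 0.64 ± 0.11. The call of Coq10b ended without CKO replicate 1 (-0.62, limma adjusted p = 0.0522). Cytochrome c (Cycs) was at -0.31 and cytochrome c1 (Cyc1), a complex III subunit outside the symbol rule, at -0.36, neither past the test (limma adjusted p = 0.0722 and 0.0788). In the pyruvate dehydrogenase and citric acid cycle list 1 of 16 fell (6.25%, against 10.8% of all genes), and the median was -0.03. The gene was Idh3a, a subunit of isocitrate dehydrogenase, lower by 0.60 ± 0.10 (-0.36 with probes averaged, still past the test). None of 4 tested carriers and inhibitors that serve ATP synthase passed, with the ADP/ATP carrier gene Slc25a5 at -0.11. Of 7 tested genes of mitochondrial DNA 2 were called (28.6%, against 25.2% of all tested genes). COX2 of complex IV rose by 0.44 ± 0.10, with raw intensities of 9063 and 10699 against 6475 and 7543. The COX2 call ended without CKO replicate 1, CKO replicate 2 or control replicate 1 (0.49, 0.39 and 0.41, limma adjusted p = 0.0587, 0.0967 and 0.0773). ND5 of complex I, a dim probe, fell by 0.54 ± 0.15. It stood at -0.25 without background correction and at -0.14 on the authors' processed values (limma adjusted p = 0.0847). The ND5 call also ended under median scaling, without the filter on dim probes and without CKO replicate 2 (-0.35), control replicate 1 (-0.44) or control replicate 2 (-0.64). The others, ATP6, CYTB, ND1, ND4 and ND4L, lay between 0.03 and 0.25 and did not pass.

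**Figure D5:**
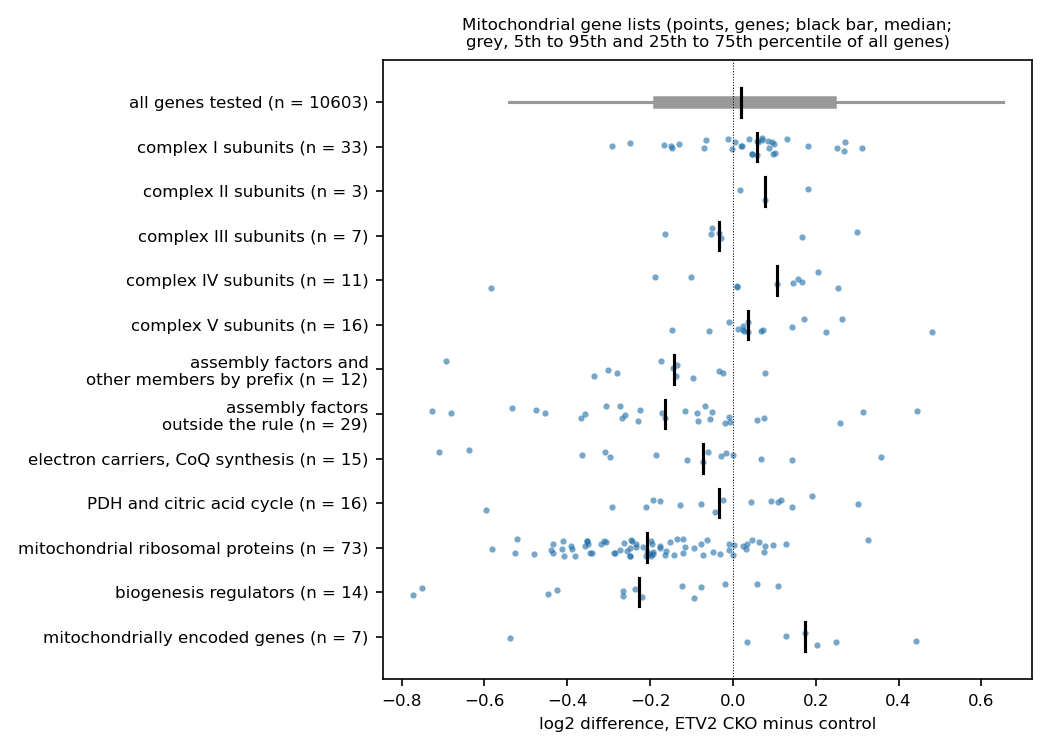
Log2 difference between ETV2 CKO and control (horizontal axis) of each tested gene, by list, with a black bar at the median; for all genes the grey bars give the 25th to 75th and the 5th to 95th percentile. The medians are -0.21 for mitochondrial ribosomal proteins, -0.16 for assembly factors outside the symbol rule and 0.08, -0.03 and 0.11 for the subunits of complexes II, III and IV.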

How the data were processed

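The authors deposited 2 tables. Per the file headers, the first holds non-normalized probe intensity on a linear scale for each of the 4 arrays, and beside each a detection p-value. Each detection p-value column deposited by the authors was tied to the signal at its left, with which it falls at all but 0 to 2 of the ordered probes (15619 or more exceptions with any other column). The second, the authors' processed intensity table, holds almost the same distribution on each array and served as an alternative. The submitters' processing notes name lumi 2.15.1 without a role. Further steps: not given in the sources used here.

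Signals were processed with neqc of limma 3.58.1 in R 4.3.3 (background from detection p-values, offset 16, quantile normalization, log2). Per gene the brightest probe with a detection p under 0.05 on 2 or more arrays was used. Differences were tested with lmFit and eBayes with group as the sole term. P-values are 2-sided and were adjusted by Benjamini-Hochberg across the 10603 genes, at 0.05. The test had 6.54 degrees of freedom, and the 95% intervals use them. It was tested on simulated data. Exact permutation of 2 against 2 arrays cannot give a 2-sided p under 0.333, and the number of arrays limits all precision. Gene symbols come from the platform annotation, in which 34885 of 45281 probes have 1 symbol, 18 several and 10378 none.

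Members, gene lists, motifs and tests were chosen with earlier results of these data known. The text names members past the test, the member of highest mean level per complex, isoforms, assembly factors, genes with probes of opposite sign and up to 3 called genes of each other list. Other genes were named after their values were seen, as were the band of 0.5 and the level of 12. For a gene below background on both arrays of 1 group, the fold is the mean of the bright group over a floor. That floor is the higher of the probe's own signal and the lowest signal above background. Such a fold is a point value and not the limit of an interval.

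The CKO arrays had 18798 and 18612 probes above background and the control arrays 18065 and 17934. Alternatives were no background correction, an offset of 50, median scaling, the authors' values, no filter on dim probes, a detection p under 0.01 on all arrays, probes averaged per gene, an intensity trend, the replicate number as a block, each array left out in turn and a fit by probe.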

Additional observations from a re-analysis of the deposited data

How the results depend on the processing

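Over the 13 alternatives run on genes, 1 to 17 members were called and 11.1% to 34.6% of all genes, and the members' share was the lower in all 13. The members' median ran from 0.0013 to 0.05, and 18 members were called at least once. Members called lower and higher numbered 6 and 7 without background correction, 6 and 5 with an offset of 50, 7 and 8 on the authors' values, 5 and 3 with a detection p under 0.01 on all arrays, and 7 and 10 with an intensity trend. The number higher was 0 under median scaling, without the filter on dim probes and with the replicate block. With probes averaged Ndufa3 was not called (0.27) and Ndufc2 was (0.40). Fitted probe by probe, 3 were lower and 1 higher.

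By complex, calls in I, II, III, IV and V numbered 7, 2, 0, 1 and 3 without background correction, 6, 2, 0, 1 and 2 with the offset of 50, 7, 2, 0, 3 and 3 on the authors' values, 4, 2, 0, 1 and 1 under the stricter detection, and 7, 2, 1, 4 and 3 with the trend. Complex I had 1 call under median scaling, without the filter and with the block, and complex II had 1 with probes averaged. In the same 5 settings in that order, calls were 16, 13, 15, 9 and 15 for assembly factors, 6, 6, 7, 6 and 6 for electron carriers, 4, 3, 4, 2 and 5 for the citric acid cycle and 37, 28, 38, 24 and 39 for mitochondrial ribosomal proteins. The last count was 7 under median scaling and 11 without the filter. Regulators had 7 without background correction and 5 with the trend, and mitochondrial DNA had 4 with the trend and 1 on the authors' values, with median scaling and without the filter. The citric acid cycle had 2 with probes averaged. Medians moved to -0.040 for complex II without the filter, -0.25 for assembly factors and 0.010 for carriers of ATP synthase with probes averaged. All genes called lower were 649 under median scaling, which raised the share of calls that were higher from 57.2% to 70.3%. Etv2 was at 0.13 on the authors' values (limma adjusted p = 0.0599). The cause of these shifts was not tested.

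Leaving out 1 array gave 545 to 671 genes lower and 751 to 1013 higher, 1 to 2 members lower and 0 to 1 higher, 1 call in complex I, 0 to 1 in IV and in V, 2 to 4 among assembly factors, 1 to 3 among electron carriers, 2 to 4 among ribosomal proteins and 0 to 1 in mitochondrial DNA. Medians then ran from -0.10 to 0.029 for complex II, -0.17 to -0.061 for electron carriers, -0.061 to 0.0061 for carriers of ATP synthase and 0.088 to 0.19 for mitochondrial DNA, and Etv2 from 0.39 to 0.53, its call ending when a CKO array or the first control array was dropped (limma adjusted p from 0.0736 to 0.0816). The group left with a single array is assumed to vary like the other.

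Values near 0 changed sign in places. Under median scaling Ndufaf3 was at 0.070, Ndufb4 at 0.079 and Atp5c1 at -0.0098. With probes averaged Ndufb6 was at 0.071, Ndufc1 at -0.0051, Ndufb8 at -0.13, Atp5o at -0.083, Atp5j at -0.027 and Atp5a1 at -0.039.
Leaving out 1 array gave these ranges on the log2 scale: Ndufaf2 -0.32 to 0.032, Ndufb10 -0.19 to 0.046, Ndufaf3 -0.25 to 0.20, Ndufb6 -0.043 to 0.018, Ndufb4 -0.045 to 0.040, Ndufa1 -0.016 to 0.027, Ndufa8 -0.018 to 0.057, Ndufc1 -0.011 to 0.054, Ndufv2 -0.012 to 0.089, Ndufb3 -0.055 to 0.17, Sdhb -0.028 to 0.062, Sdhaf4 -0.10 to 0.25, Sdhc -0.0016 to 0.16, Uqcrc2 -0.24 to 0.13, Uqcrc1 -0.14 to 0.077, Cox7a2l -0.11 to 0.045, Cox6a1 -0.037 to 0.058, Cox5b -0.024 to 0.046, Atp5l -0.12 to 0.0063, Atp5d -0.089 to 0.071, Atp5c1 -0.0092 to 0.034, Atp5b -0.0039 to 0.050, Atp5g3 -0.021 to 0.071, Atp5mpl -0.043 to 0.097, Atp5o -0.028 to 0.10, Atp5a1 -0.038 to 0.18.

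The replicate numbers are not known to pair samples. The correlation of same-numbered deviations was 0.07 over genes, and the replicate block moved the count of all genes called from 2671 to 2725. No slide is named in the files, so a slide term was not run.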
